A study of Mus musculus with 12 samples.

Results

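The Myc and BTG/TOB growth regulators examined here are 8 genes, Myc, its dimerisation partner Max, the antagonist Mxd1, and Btg1, Btg2, Btg3, Tob1 and Tob2 of the BTG/TOB family. They were taken by symbol from a gene-level array table, keeping for each symbol the feature with the highest mean over 12 arrays. Of the 8, 7 had a feature listed with that symbol only and are among the 22180 genes tested. Btg3 had no such feature. Its 2 features are listed with Btg3 and Gm7334 together, so their signal cannot be assigned to Btg3, and the brighter of them was tested apart, among the 1820 features listed with several symbols.

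The cells were BV2, an immortalised mouse microglial line labelled wild type, and every group, controls included, received 1.5% DMSO. The 4 groups of 3 arrays were DMSO, which had vehicle alone for 3 h, LPS, in which 1 h with the endotoxin followed 2 h in vehicle, Telmisartan, which had 3 h of drug and no LPS, and Telmisartan+LPS, in which 2 h of drug came before 1 h with LPS. LPS is a bacterial cell wall component sensed by Toll-like receptor 4, and telmisartan is an angiotensin II type 1 receptor blocker, given at a dose that is not stated in the sources used here. A single cell line limits the groups as a model of microglia in tissue. The protocol speaks of independent samples, each analysed in triplicate, and does not say which of these the 3 arrays of a group are, so the tests rest on a spread that may be technical.

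Myc is a transcription factor that binds DNA as a dimer with Max at E-box sequences and promotes cell growth and ribosome production. Mxd1 competes for Max and forms dimers that repress the same sites. BTG and TOB proteins restrain proliferation. They bind the deadenylase subunits of the CCR4-NOT complex, which shortens poly(A) tails and hastens mRNA decay, and Btg2 was first described as an immediate early gene and is a p53 target.

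Values are log2 RMA signals, group means carry the SD of 3 arrays, and differences are log2 differences with the standard error (SE) of a limma fit over all 12 arrays. A gene was called when its Benjamini-Hochberg adjusted p over the 22180 genes was under 0.05. The known LPS targets Tnf, Il1b and Il6 had LPS minus DMSO differences of 1.60, 4.19 and 3.75. All 9 microglial markers measured lay above the median of all feature means, 4.09, from Cx3cr1 at 5.30 to Cd68 at 12.2. Of 11 markers of astrocytes, neurons and oligodendrocytes, 3 lay above that median, the highest of them Rbfox3 at 5.04. The medians of the 12 arrays over all features lay between 4.08 and 4.13. Replicates 1 and 3 of Telmisartan+LPS stood apart from the other arrays, at 17.3 on the third and 20.2 on the second principal component, and the calls that rest on them, with most member values, are also given without both.

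The promoters of Btg1 and Btg2 are shown because these genes rose with LPS and both have a RefSeq window (build GRCm38.p6). RefSeq windows were held for 7 of the 8 members, with 2 for Btg3. Myc had none, so its promoter was not searched. Each line gives the 250 bases before the annotated start, with capitals marking matches to the cyclic AMP response element TGACGTCA, to its core ACGTCA, or to the TATA box TATAAA. The Btg1 window is chr10:96616751-96617000 on the plus strand and the Btg2 window chr1:134079156-134079405 on the minus strand.
Btg1: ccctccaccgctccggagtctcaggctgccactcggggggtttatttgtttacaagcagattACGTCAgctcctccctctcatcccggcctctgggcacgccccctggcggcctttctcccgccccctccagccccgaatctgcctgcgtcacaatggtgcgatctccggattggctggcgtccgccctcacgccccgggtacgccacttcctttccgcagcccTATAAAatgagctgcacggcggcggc
Btg2: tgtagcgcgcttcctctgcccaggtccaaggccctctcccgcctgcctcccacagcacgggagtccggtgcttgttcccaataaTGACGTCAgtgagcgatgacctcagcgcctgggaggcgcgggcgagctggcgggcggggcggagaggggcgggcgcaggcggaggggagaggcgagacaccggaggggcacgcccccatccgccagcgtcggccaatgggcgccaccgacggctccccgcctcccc
Both strands were searched, and a palindromic match was counted once. Btg2 held the full element TGACGTCA 166 to 159 bases before the start, and it contains the core on both strands. Btg1 held the core ACGTCA 188 to 183 bases before the start and a TATA box 26 to 21 bases before it. Tob1 also held a TATA box, 47 to 42 bases before its start. Of 32817 RefSeq windows of this length, 1.55% held TGACGTCA, 6.46% ACGTCA, 12.4% TATAAA, and 33.8% the CCAAT box, which was also found in Btg1 and Btg2 and in the windows of Mxd1, Btg3 and Tob1. The core was found in no window of Max, Mxd1, Btg3, Tob1 or Tob2. The E-box CACGTG, held by 6.02% of windows, was found in none of the 8 windows of the 7 members searched. Nor was the serum response element, held by 1.47%. The NF-kB consensus, held by 7.25%, was found only in the second window of Btg3. A match is a description of the letters and no evidence of a bound site.

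The first comparison set LPS against DMSO, both without the drug. Btg2, Myc and Btg1 rose, and no member was called lower. These 3 of 8 members were called higher, where 0.379% of all genes were called higher. Max, Mxd1, Tob1, Tob2 and the Btg3/Gm7334 feature did not pass the threshold.

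Btg2, which recruits the deadenylase to mRNAs, had the largest difference of the 8. It read 5.10, 5.33 and 5.23 on the DMSO arrays and 6.41, 6.38 and 6.18 on the LPS arrays. Every LPS array was therefore above every DMSO array, with a gap of 0.85 between the nearest arrays. The mean went from 5.22 ± 0.12 (SD, n = 3) to 6.32 ± 0.13 (SD, n = 3), a difference of 1.10 (SE 0.12) or 2.15-fold. The limma test gave a Benjamini-Hochberg adjusted p of 0.000312, and Btg2 ranked 28 of 22180 genes by the absolute size of its difference.

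Myc read 5.60, 5.69 and 5.64 in DMSO and 6.29, 6.48 and 6.61 in LPS. The DMSO arrays lay within 0.09 of each other and all below the LPS arrays. The difference was 0.82 (SE 0.12), or 1.76-fold, between 5.64 ± 0.045 (SD, n = 3) and 6.46 ± 0.16 (SD, n = 3), with an adjusted p of 0.00635 in limma (Benjamini-Hochberg).

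Btg1, a close relative of Btg2 that is abundant in resting lymphocytes, read 6.54, 6.61 and 6.60 in DMSO and 6.99, 7.01 and 7.01 in LPS. Its arrays were the tightest of the called members, and the groups did not overlap. The difference was 0.42 (SE 0.067), or 1.34-fold, between 6.58 ± 0.038 (SD, n = 3) and 7.00 ± 0.012 (SD, n = 3), with an adjusted p of 0.00923 in limma (Benjamini-Hochberg). The call was lost without DMSO replicate 1 (difference 0.40, limma adjusted p = 0.0704) and without LPS replicate 2 (difference 0.42, limma adjusted p = 0.0518).

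The partner and antagonist of Myc moved little. Max read 9.80, 9.83 and 9.76 in DMSO and 9.71, 9.79 and 9.69 in LPS, a difference of -0.067 (95% interval -0.20 to 0.065). Mxd1 read 7.23, 7.33 and 7.01 in DMSO and 7.04, 7.18 and 7.17 in LPS, a difference of -0.06 (95% interval -0.27 to 0.15), and lay between -0.15 and 0.01 as arrays were dropped singly. The groups overlapped for both genes. The intervals are not adjusted for the number of genes and rest on a spread that may be technical, so larger changes are not excluded.

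Tob1 and Tob2 encode larger family members that bind both the deadenylase and poly(A)-binding protein. Tob1 read 7.00, 7.00 and 7.11 in DMSO and 6.96, 6.96 and 6.69 in LPS. All LPS arrays lay below the DMSO arrays, the nearest by 0.04, and the difference of -0.17 (SE 0.089) did not pass the threshold (limma, adjusted p = 0.613). Without LPS replicate 3 it was -0.077. Tob2 read 6.92, 7.07 and 6.82 in DMSO and 7.04, 6.94 and 6.86 in LPS, with overlapping groups and a difference of 0.01 (95% interval -0.21 to 0.23). The Btg3/Gm7334 feature was dim, from 2.68 to 3.04 over the 12 arrays, and differed by -0.067 (95% interval -0.28 to 0.15). The other feature of the pair lay between 2.51 and 2.83. In total, groups did not overlap for 4 of the 8 members, 3 higher and 1 lower, where 15.7% of all genes had groups without overlap, 6.28% higher and 9.42% lower.

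**Figure D1:**
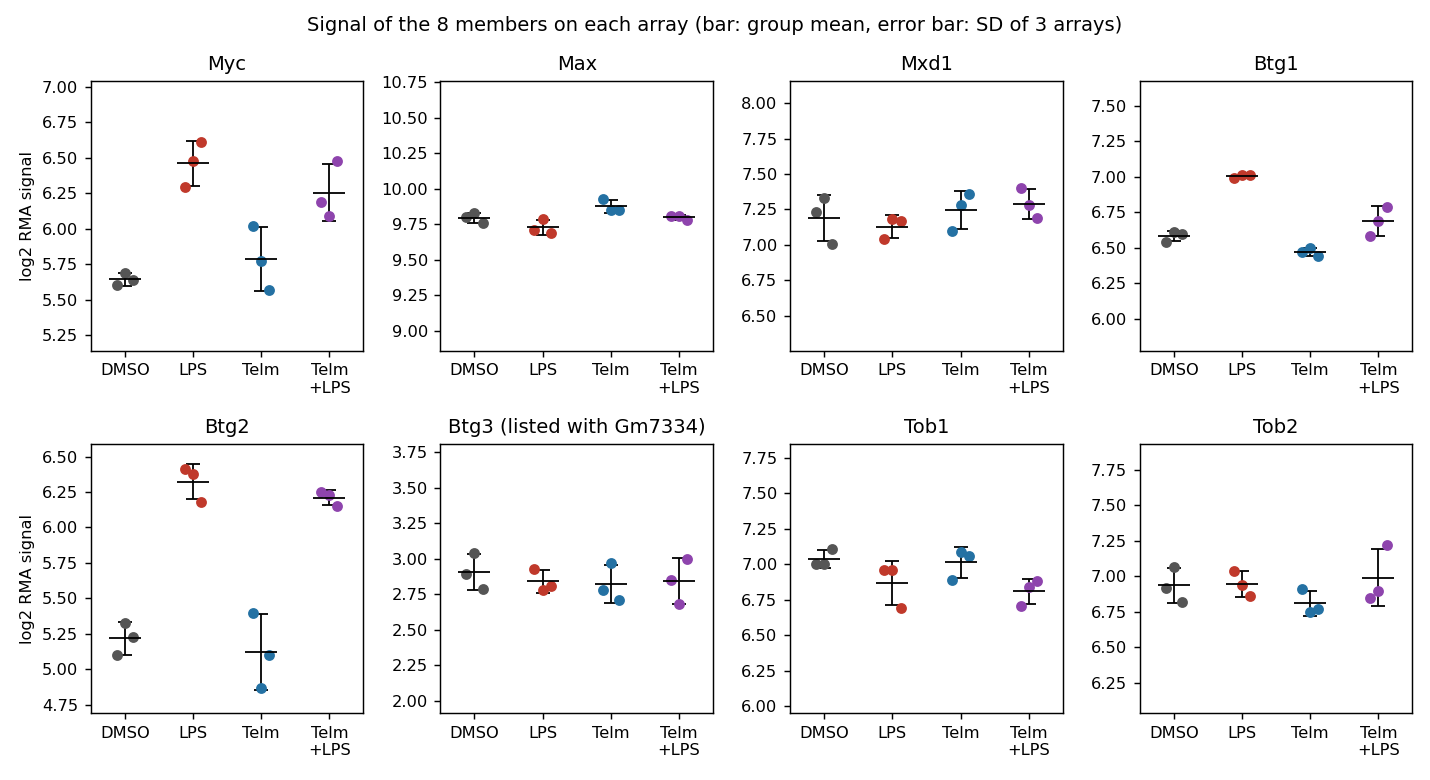
Log2 RMA signal of each member (y axis, the same span in every panel) on the 3 arrays of each group (points), with the group mean as a horizontal line and the SD as error bar. Btg2, Myc and Btg1 are higher on every LPS array than on every DMSO array, and the Telmisartan+LPS arrays of Btg1, at 6.58 to 6.79, lie below all LPS arrays.

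The second comparison asked whether LPS does the same in cells given telmisartan. Btg2 rose again and was the only member called, 1 of 8, where 0.248% of all genes were called higher. It read 5.40, 4.87 and 5.10 with Telmisartan alone and 6.25, 6.23 and 6.15 with Telmisartan+LPS, so the groups were separated by 0.75. The difference was 1.09 (SE 0.12), or 2.12-fold, between 5.12 ± 0.27 (SD, n = 3) and 6.21 ± 0.053 (SD, n = 3), with an adjusted p of 0.000446 in limma (Benjamini-Hochberg). With both Telmisartan+LPS arrays that stand apart left out, which leaves 1 array in that group, the difference was 1.11 and the adjusted p in limma 0.0556, so that 0 members were called.

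Myc read 6.02, 5.77 and 5.57 with Telmisartan and 6.19, 6.09 and 6.48 with Telmisartan+LPS. The groups did not overlap, but the gap between the nearest arrays was 0.07. The difference of 0.47 (SE 0.12), from 5.79 ± 0.23 (SD, n = 3) to 6.25 ± 0.20 (SD, n = 3), did not pass the threshold in limma (adjusted p = 0.173), and it was 0.35 without Telmisartan+LPS replicate 3 and 0.30 without both arrays that stand apart.

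Btg1 read 6.47, 6.50 and 6.44 with Telmisartan and 6.58, 6.69 and 6.79 with Telmisartan+LPS. Again the groups were apart, and the difference of 0.22 (SE 0.067), from 6.47 ± 0.03 (SD, n = 3) to 6.69 ± 0.11 (SD, n = 3), did not pass the threshold in limma (adjusted p = 0.209). Tob1 was at -0.20 (SE 0.089) and Max at -0.077 (SE 0.061), each with all Telmisartan+LPS arrays below all Telmisartan arrays and neither called (limma, adjusted p = 0.342 and 0.613). Tob2 was at 0.18, Mxd1 at 0.043 and the Btg3/Gm7334 feature at 0.023, with overlapping groups. The Tob2 value was 0.065 without Telmisartan+LPS replicate 3. Without both arrays that stand apart, Tob2 was at 0.09, Btg1 at 0.22, Tob1 at -0.17, Max at -0.067, Mxd1 at 0.033 and Btg3/Gm7334 at -0.14. Of the 8 members, 5 had groups without overlap, 3 higher and 2 lower, where 17.0% of all genes did, 8.03% higher and 8.95% lower. At an unadjusted p under 0.05 the count was 4, namely Btg2, Myc, Btg1 and Tob1, where 13.6% of all genes were under it.

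The mean of both LPS differences uses every array. In this average Btg2 rose by 1.10 (SE 0.082), Myc by 0.64 (SE 0.088) and Btg1 by 0.32 (SE 0.047), and 3 of 8 members were called higher, where 0.537% of all genes were. Benjamini-Hochberg adjusted p-values in limma were 6.45e-06 for Btg2, 0.00196 for Myc and 0.00408 for Btg1. The same 3 genes passed in every alternative fit run, including those that left out 1 array and the fit without both arrays that stand apart (limma, adjusted p = 0.000721 for Btg2, 0.0456 for Myc and 0.0202 for Btg1). Tob1 was lowest of the 8, at -0.19 (SE 0.063), and kept that sign in all alternatives, but was not called (limma, adjusted p = 0.219). The median of the 8 members was 0.043 and that of all genes 0.0033.

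**Figure D2:**
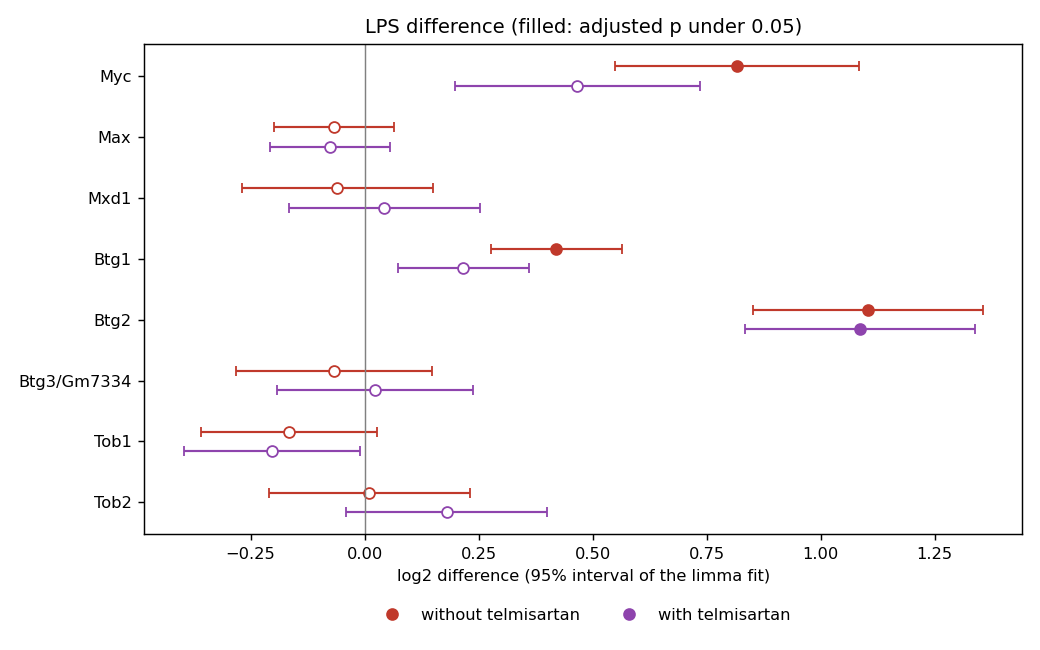
Log2 difference made by LPS (x axis) for each member without telmisartan (LPS minus DMSO) and with it (Telmisartan+LPS minus Telmisartan), with unadjusted 95% intervals of the limma fit and filled points where the adjusted p was under 0.05. The pair of Btg2 points lies at 1.10 and 1.09, while for Myc the points are at 0.82 and 0.47 and for Btg1 at 0.42 and 0.22.

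Whether the LPS difference itself depended on the drug was tested as an interaction, Telmisartan+LPS minus Telmisartan less LPS minus DMSO. The interaction was -0.02 (SE 0.16, 95% interval -0.37 to 0.34) for Btg2, -0.35 (SE 0.18, 95% interval -0.73 to 0.029) for Myc and -0.20 (SE 0.094, 95% interval -0.41 to 0.0003) for Btg1. None of the 8 members passed the threshold in limma (0 called, against 0.0% of all genes). At an unadjusted p under 0.05 there were 0 members, where 7.78% of all genes were under it. The adjusted p was 0.982 for Btg2, 0.647 for Myc and 0.642 for Btg1. The lower LPS differences of Myc and Btg1 in the presence of the drug are thus not shown to differ from those in its absence. The Myc value ranged from -0.46 to -0.23 and the Btg1 value from -0.26 to -0.15 when single arrays were left out, and without both arrays that stand apart the Myc value was -0.51, the Btg1 value -0.20 and the Btg2 value 0.0033.

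The third comparison set Telmisartan against DMSO, both without LPS. None of the 8 members was called in limma (0 members, 0.0% of all genes). At an unadjusted p under 0.05 there were 0 members, where 5.51% of all genes were under it. The Btg1 arrays lay at 6.44 to 6.50 with the drug, all below the DMSO arrays, with a difference of -0.11 (95% interval -0.26 to 0.031). Max lay at 9.85 to 9.93 with the drug, all above the DMSO arrays, with a difference of 0.08 (95% interval -0.052 to 0.21). Myc was at 0.14 (95% interval -0.12 to 0.41), and the value was 0.027 without Telmisartan replicate 1, its highest array in that group. Btg2 was at -0.097 (95% interval -0.35 to 0.15), Tob1 at -0.023, Tob2 at -0.13, Mxd1 at 0.057 and the Btg3/Gm7334 feature at -0.087. Of the 8, 2 had groups without overlap, 1 higher and 1 lower, where 11.4% of all genes did, 4.73% higher and 6.66% lower.

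The fourth comparison set Telmisartan+LPS against LPS. No member was called in limma (0 of 8, 0.0% of all genes). Btg1 had the smallest unadjusted p and was the only member under 0.05 before adjustment, where 9.81% of all genes were. It read 6.58, 6.69 and 6.79 with Telmisartan+LPS against 6.99, 7.01 and 7.01 with LPS, so that the groups were 0.20 apart at their nearest arrays. The difference was -0.32 (SE 0.067, 95% interval -0.46 to -0.17), or 1.25-fold, with an adjusted p of 0.263 in limma (Benjamini-Hochberg). It ranked 28 of 22180 genes by p-value, and no gene passed the threshold in this comparison. Leaving out single arrays gave -0.37 to -0.26, and the value was -0.31 without both arrays that stand apart.

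Myc was at -0.21 (95% interval -0.47 to 0.061), with Telmisartan+LPS replicate 3 at 6.48 among the LPS arrays. The Myc value was -0.32 without that array, -0.13 without Telmisartan+LPS replicate 2 and -0.37 without both arrays that stand apart. Btg2 was at -0.11 (95% interval -0.36 to 0.14), with overlapping groups. Mxd1 read 7.40, 7.28 and 7.19 with Telmisartan+LPS, all above the LPS arrays, the nearest by 0.01, with a difference of 0.16 (95% interval -0.049 to 0.37). Max was at 0.07, Tob1 at -0.06, Tob2 at 0.043 and the Btg3/Gm7334 feature at 0.0033. Without both arrays that stand apart, Btg2 was at -0.093, Mxd1 at 0.15, Max at 0.08, Tob1 at -0.03, Tob2 at -0.047 and Btg3/Gm7334 at -0.16. Of the 8, 2 had groups without overlap, Btg1 lower and Mxd1 higher, where 13.0% of all genes did, 6.23% lower and 6.74% higher. This comparison shares the LPS arrays with the first, and the third shares the DMSO arrays with it.

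Averaged over both LPS states, Btg1 was at -0.22 (SE 0.047) with the drug and lower than the matched group without drug on every array in each state. It was not called in limma (adjusted p = 0.32), and 0 of 8 members were, where 0.00451% of all genes were called. Btg1 was the only member under 0.05 before adjustment, where 7.32% of all genes were, and was at -0.21 without both arrays that stand apart. The other members lay between -0.11 for Btg2 and 0.11 for Mxd1.

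**Figure D3:**
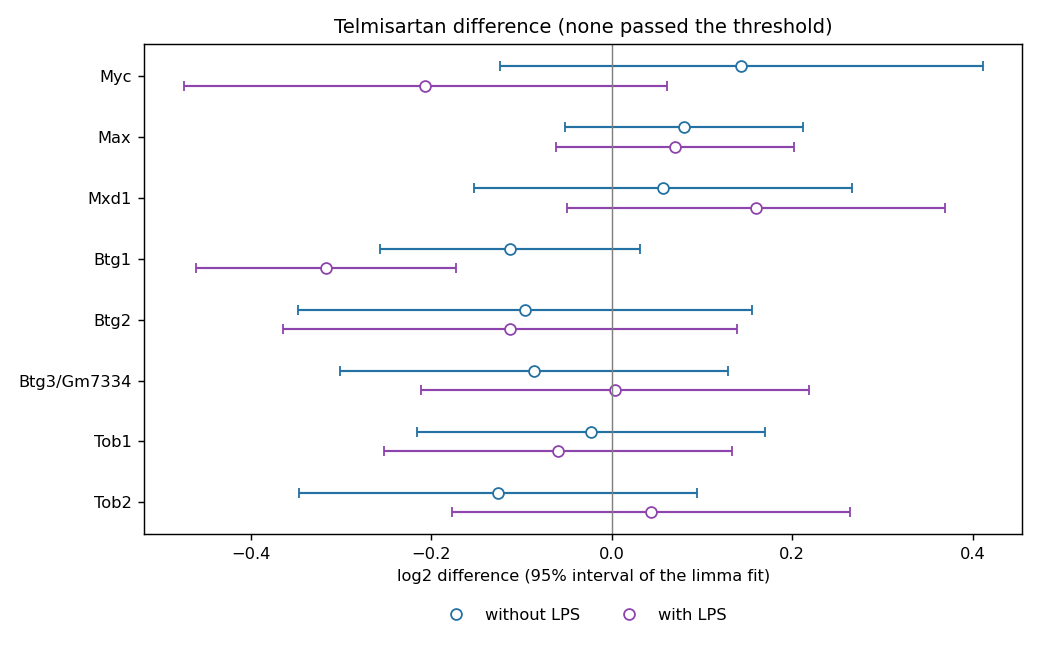
Log2 difference made by telmisartan (x axis) for each member without LPS (Telmisartan minus DMSO) and with LPS (Telmisartan+LPS minus LPS), with unadjusted 95% intervals of the limma fit; open points mark values that were not called. The interval of Btg1 with LPS, at -0.46 to -0.17, is the only one that leaves out 0.

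Group levels of the called genes were then put in order. For Btg2, Telmisartan (5.12) and DMSO (5.22) overlapped, as did Telmisartan+LPS (6.21) and LPS (6.32), so the arrays formed a low and a high set. For Myc the order was DMSO (5.64), Telmisartan (5.79), Telmisartan+LPS (6.25) and LPS (6.46), with overlap between the lower 2 groups and between the upper 2, so a low and a high set formed there too, 0.07 apart. For Btg1 it was, as for Btg2, Telmisartan (6.47), DMSO (6.58), Telmisartan+LPS (6.69) and LPS (7.00). There only DMSO and Telmisartan+LPS overlapped, and LPS stood above all 9 other arrays.

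The genes whose values were most like those of each called member were found by the root mean square difference over the 12 arrays, each gene centred on its own mean. The 12 values share 4 group means, so likeness mostly reflects the group pattern. Nearest to Btg2 were Pim1, a growth-promoting kinase gene, at a root mean square difference of 0.15, Nfkbia, which encodes the NF-kB inhibitor IkB alpha, at 0.17, the itaconate-producing enzyme gene Acod1 at 0.18 and Slfn2 at 0.18. Their LPS minus DMSO differences were 1.16, 1.04, 1.28 and 0.97 in that order, and with telmisartan 0.83, 0.84, 1.00 and 0.96.

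Nearest to Myc were the checkpoint ligand gene Cd274 at 0.15, the cytokine gene Lif at 0.16, the ubiquitin ligase gene Trim13 at 0.17 and Cflar, which encodes an inhibitor of caspase-8, at 0.17. Their LPS differences were 0.90, 0.59, 0.76 and 0.67 without the drug and 0.56, 0.31, 0.55 and 0.41 with it. Of these, only the Lif difference with the drug was not called (limma, adjusted p = 0.139). Nearest to Btg1 were the small GTPase gene Rhob at 0.069, the Toll-like receptor pathway genes Peli1 and Irak2, each at 0.084, and Klc3, a kinesin light chain gene, at 0.085. Their LPS differences were 0.39, 0.35, 0.37 and 0.41 without the drug and 0.16, 0.09, 0.35 and 0.073 with it. Rhob and Klc3 were not called without the drug (limma, adjusted p = 0.13 and 0.0852). Peli1 and Irak2 were, but lost the call in 6 and 11 of 20 alternative fits. With the drug none of these genes was called. Klc3 was dim, with a mean of 4.32. A small-amplitude gene such as Btg1 has a small difference from many genes, so these distances are not comparable between members. Among the members themselves, Myc and Btg1 were 0.23 apart, Myc and Btg2 0.30, and Btg1 and Btg2 0.42. These distances do not rank the pairs. In the order of nearness to Btg1, Myc was at place 7032 and Btg2 at place 17201. In the order for Myc, Btg1 was at place 49 and Btg2 at place 652. In the order for Btg2, Myc was at place 35 and Btg1 at place 94.

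**Figure D4:**
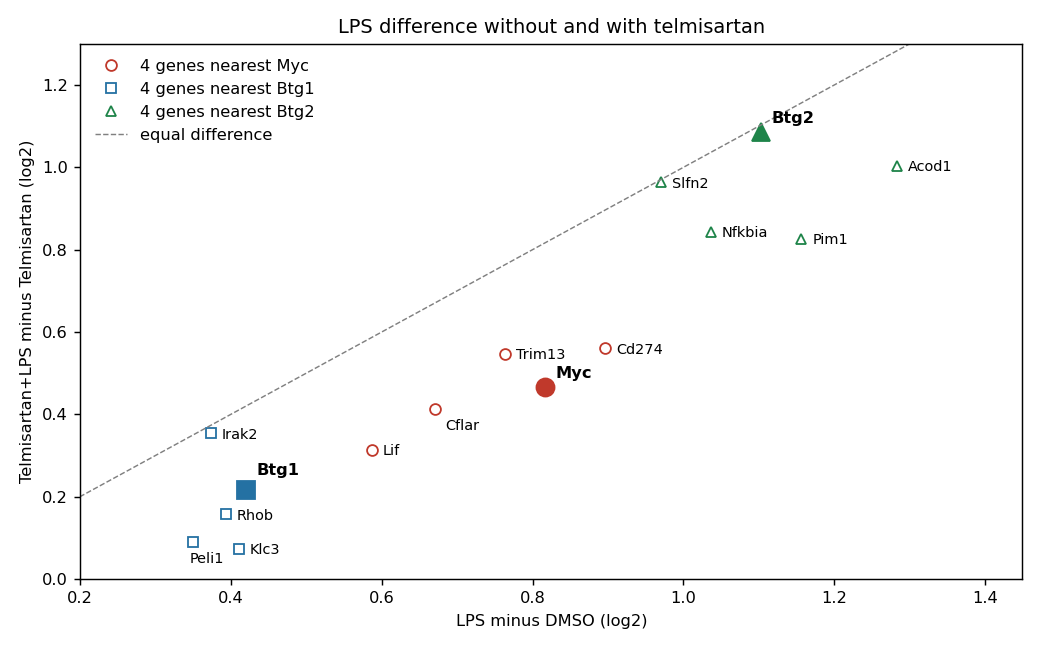
LPS difference without telmisartan (x axis, log2) against the LPS difference with telmisartan (y axis, log2) for Myc, Btg1 and Btg2 (filled) and the 4 genes nearest to each over the 12 arrays (open), with a dashed line where both are equal. Btg2 lies close to the line, at 1.10 and 1.09. All 12 nearest genes lie below the line, as do Myc and Btg1, with Slfn2 and Irak2 close to it. The nearest genes were chosen for their likeness on these same arrays. Their place near a member therefore follows from the choice and is no separate evidence of a smaller LPS difference with the drug.

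Related genes were read from lists of the wider network. Of 11 other Myc, Max and Mxd network genes measured, 0 were called in any LPS or drug comparison in limma, and 1 had an unadjusted p under 0.05 for the average LPS effect, where 14.4% of all genes did. Their median average LPS effect was -0.0033, against 0.0033 for all genes. The largest values were -0.14 for the Max-binding repressor gene Mga, 0.12 for the Myc paralog Mycl and 0.10 for Mxd4, an antagonist like Mxd1. For the average telmisartan effect they were -0.14 for Mxd4 and 0.11 for Mlxipl, which encodes the glucose-sensing factor ChREBP. Both Mxd4 averages join opposite signs. Its LPS difference was -0.17 without the drug and 0.37 with it, and its telmisartan difference -0.40 without LPS and 0.13 with it. Mxd4 and Mycl were dim, with means of 3.77 and 3.15 against the median of all feature means, 4.09.

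Genes of the CCR4-NOT complex, the PAN2 and PAN3 deadenylase and other BTG/TOB partners had 0 of 14 measured members called in limma in any of these comparisons. For the average LPS effect 13 were below 0, with a median of -0.036, and 3 had an unadjusted p under 0.05, all lower, against 14.4% of all genes in either direction. These were Cnot8, a deadenylase subunit that BTG and TOB proteins bind, at -0.18, the deadenylase gene Cnot6 at -0.15, and Prmt1, an arginine methyltransferase gene whose product binds Btg1 and Btg2, at -0.13 (limma, adjusted p = 0.224, 0.32 and 0.306). The largest average telmisartan values were -0.11 for Cnot6 and -0.087 for Pan2.

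Genes that set the stability of Myc protein had 0 of 11 members called in limma, and 4 had an unadjusted p under 0.05 for the average LPS effect, all lower, against 14.4% of all genes in either direction. The median was -0.047, and the largest values were -0.19 for the deubiquitinase gene Usp28, -0.17 for Cip2a, which protects Myc from dephosphorylation, and -0.17 for the mitotic kinase gene Aurka. For the average telmisartan effect Usp28 was at -0.087 and Gsk3b, which encodes a kinase that marks Myc for degradation, at -0.078.

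Well known targets that Myc activates had 0 of 23 members called in limma in any comparison. In LPS minus DMSO, 21 were below 0 with a median of -0.07, against -0.0067 for all genes, and 2 had an unadjusted p under 0.05, both lower, against 9.02% of all genes in either direction. Telmisartan minus DMSO, which shares the DMSO arrays and involves no LPS, also had 21 below 0, with a median of -0.053. In Telmisartan+LPS minus Telmisartan, 13 were above 0 with a median of 0.0033. For the interaction 19 were above 0, with a median of 0.10 against 0.017 for all genes, and 4 had an unadjusted p under 0.05, all higher, where 7.78% of all genes did in either direction. For the average LPS effect the largest values were -0.12 for the D-type cyclin gene Ccnd2, -0.098 for the chaperonin gene Hspd1 and -0.088 for the nucleolar protein gene Gnl3. The largest average telmisartan values were -0.12 for the transferrin receptor gene Tfrc and -0.085 for the RNA polymerase I subunit gene Polr1b.

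Of 19 genes of the G1 phase, 0 were called in limma, and 4 had an unadjusted p under 0.05 for the average LPS effect, 2 higher and 2 lower, where 14.4% of all genes did. The cell cycle inhibitor gene Cdkn1a was at 0.34 (SE 0.087, limma adjusted p = 0.116). Of 19 alternative fits, Cdkn1a passed the threshold in 2, among them the fit with trend and robust options (limma, adjusted p = 0.0398). The inhibitor genes Cdkn1b and Cdkn2c were both at -0.18. The average telmisartan effect was -0.13 for E2f3 and -0.11 for E2f2, which encode activating E2F factors.

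Serum-response immediate early genes, to which Btg2 and Myc are often added, had 6 of 20 measured members called higher for the average LPS effect, where 0.537% of all genes were, and 0 lower. The median was 0.17. The largest were the early response gene Ier3 at 1.28 and the AP-1 subunit genes Junb at 0.74 and Jun at 0.57 (limma, adjusted p = 2.81e-07, 8e-05 and 0.000175). For the average telmisartan effect 0 of 20 were called in limma, and 9 had an unadjusted p under 0.05, 8 of them lower, where 7.32% of all genes did. Ier3 was at -0.42 (limma, adjusted p = 0.136) and Ier2 at -0.28. Of 19 alternative fits, Ier3 passed the threshold in 1, with trend and robust options (limma, adjusted p = 0.0167).

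**Figure D5:**
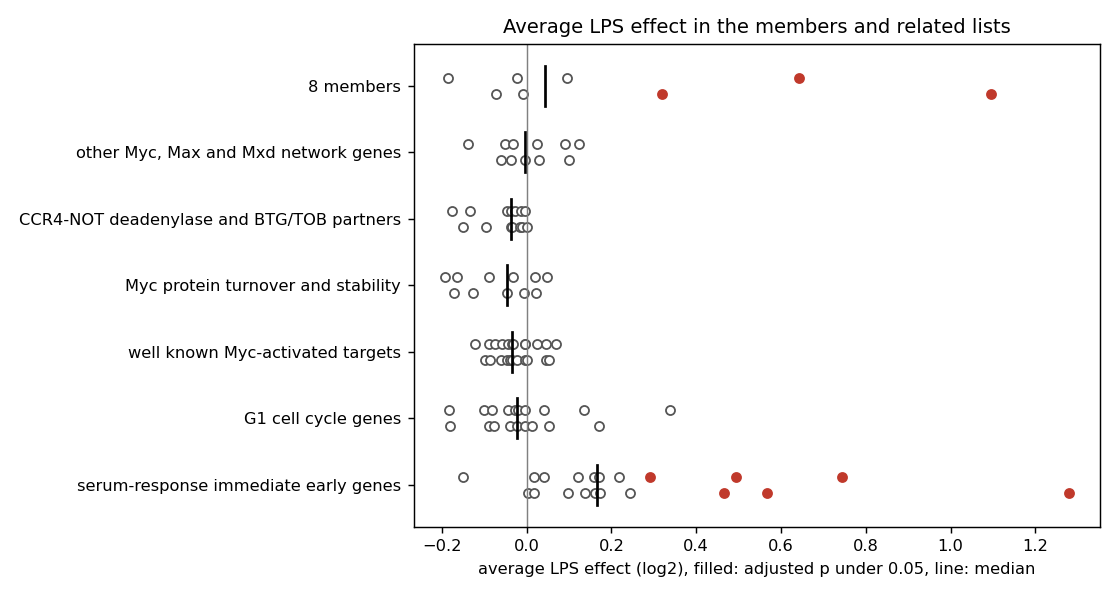
Average LPS effect over both drug states (x axis, log2) for the 8 members and for each measured gene of 6 related lists, filled where the adjusted p was under 0.05, with a line at each median. Filled points appear only among the members (3) and the immediate early genes (6).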

How the data were processed

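RNA of BV2 cells was measured on 12 Affymetrix MoGene-2_0-st arrays, 3 in each of 4 groups, assigned by the treatment label. The authors deposited RMA values on the log2 scale. Per the file headers these came from Expression Console, version 1.4.1.46, with background correction, quantile normalization over all arrays and median polish. A second deposited table of the same log2 values differed by at most 0.005 and served as an alternative.

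Features with 1 gene symbol in the platform annotation (23521 of 41345) were named through Entrez identifiers, and the brightest feature stood for each of 22180 genes. All arrays entered 1 fit of 4 group means in limma 3.58.1 (R 4.3.3), with 8 residual and 4.99 prior degrees of freedom. A call needed an adjusted p (Benjamini-Hochberg) under 0.05, whatever the fold. An array has no read depth, and the number of arrays limits the precision. On simulated data for 22180 genes, the LPS minus DMSO contrast recovered 39 of 50 genes changed 1.5-fold and 22 of 50 changed 1.3-fold, with 13 calls among unchanged genes. The simulated noise was normal and independent between genes, with the SD estimated from the data and no array that stands apart. Recovery on the real arrays may therefore differ. Alternatives were trend and robust moderation, array weights, repeated quantile normalization, a filter on dim genes, the mean of a gene's features, only the groups compared, and each array left out. The labels give no slide or scan date, and their labelling protocol names the earlier MoGene-1_0 design.

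The members and lists were chosen with earlier results of these data known. By rule the text names all 8 members in every comparison, Tnf, Il1b and Il6, of each list the 3 genes with the largest average LPS effect and the 2 with the largest average telmisartan effect, called or not, and the 4 genes nearest each called member, leaving out predicted gene models, small RNA and receptor families. Genes of the lists that have no feature listed with 1 symbol were not analysed here.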

Additional observations from a re-analysis of the deposited data

How the results depend on the processing

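Called members were recounted in the alternative fits. The reported count was 0, and stayed 0, in both telmisartan comparisons, the average telmisartan effect and the interaction. A recount of 2 in place of 3 was taken as within 1.5 times. This covers the 2 fits that lost the Btg1 call in LPS minus DMSO. Of 137 recounts of called members over 7 comparisons, 136 stayed within 1.5 times the reported count. The exception was Telmisartan+LPS minus Telmisartan without both Telmisartan+LPS arrays that stand apart, an alternative chosen after seeing the data, which gave 0 in place of 1 and leaves 1 array in that group, assumed to vary like the other groups. Of 1082 repeated member values, 3 missed the threshold that the reported value had passed and 47 had the opposite sign. All 47 belong to values that were not called, and the cause was not tested. With single arrays left out, the ranges of such values were -0.09 to 0.023 for Myc in the average telmisartan effect, and -0.03 to 0.02 for Max, -0.14 to 0.12 for Btg2 and -0.13 to 0.013 for Tob1 in the interaction. For Mxd1 they were -0.15 to 0.01 in LPS minus DMSO, -0.03 to 0.10 in Telmisartan+LPS minus Telmisartan, -0.053 to 0.027 in the average LPS effect and -0.033 to 0.13 in Telmisartan minus DMSO. Telmisartan minus DMSO ranged from -0.24 to 0.03 for Btg2 and from -0.062 to 0.038 for Tob1. Tob2 ranged from -0.048 to 0.077 in LPS minus DMSO and from -0.072 to 0.11 in Telmisartan+LPS minus LPS. The Btg3/Gm7334 feature ranged from -0.055 to 0.10 in Telmisartan+LPS minus Telmisartan, -0.061 to 0.019 in the average LPS effect and -0.075 to 0.085 in Telmisartan+LPS minus LPS. With quantile normalization repeated, Mxd1 was at 0.0304 in the average LPS effect, and the Btg3/Gm7334 feature at -0.0028 in Telmisartan+LPS minus Telmisartan and -0.025 in Telmisartan+LPS minus LPS, where array weights gave -0.0086. Without both arrays that stand apart, the interaction was 0.0033 for Btg2 and -0.073 for Btg3/Gm7334, Telmisartan+LPS minus LPS was -0.047 for Tob2 and -0.16 for Btg3/Gm7334, and Telmisartan+LPS minus Telmisartan was -0.14 for Btg3/Gm7334. Of 1224 repeated values of the other named genes, 46 missed the threshold that the reported value had passed. Another 11 passed it where the reported value had not, and 0 had the opposite sign. No paired analysis was run because the labels give no replicate numbers shared between groups. The running numbers of the titles cycle through the 4 treatments in the same order, but no label says that a cycle is a shared round or batch, and a block by cycle was not fitted.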
